A study of Mus musculus with 4 samples.

Results

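The cadherin and protocadherin genes were taken as every mouse protein-coding gene whose symbol begins with Cdh followed by a digit or with Pcdh, which gave 92 of 21900 genes. Of these, 57 belong to the 3 tandem protocadherin clusters, with 14 Pcdha, 22 Pcdhb and 21 Pcdhg genes, and 35 lie outside the clusters. Sp9, a zinc finger transcription factor of the developing striatum, was mapped by ChIP-seq with a rabbit antibody in basal ganglia of CD1 embryos at embryonic days 16.5 (E16.5) and 13.5 (E13.5). Each stage had 1 Sp9 ChIP library, called against 1 input library made without antibody. The study's question is the control of Six3 by Sp8 and Sp9 while D2-type medium spiny neurons are produced. The embryos are described only by strain, tissue and stage, and the sources used here do not state how many embryos a library pooled.

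The deposited lists hold 6022 numbered peaks at E16.5 and 5847 at E13.5 that were assigned to at least 1 gene. For each gene they give the signed distance of its peaks from the transcription start site (TSS) on mm9, without coordinates, peak heights or widths. No read totals come with them, and the depth of the libraries is therefore unknown. Each peak was assigned by the authors to the genes on either side of it, up to 1000000 bp away, so a gene with distant neighbours has more sequence in which a peak can be assigned to it. Without replicates there is no test of a difference between the stages, and every count below describes these 2 lists. Peak lists measure no RNA, so the labelled tissue was not checked against marker genes here.

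Cadherins are calcium-dependent adhesion proteins of the cell surface. Classical cadherins bind catenins inside the cell, which tie them to actin, and different classical cadherins favour partners of their own kind, so that cells with matching cadherins stay together. In the embryonic telencephalon this sorting helps to keep cortex and striatum apart, with R-cadherin (Cdh4) on the cortical side and cadherin-6 (Cdh6) on the side of the lateral ganglionic eminence. The delta protocadherins of the nonclustered group act in cell sorting, axon growth and synapse formation. In the clusters, each neuron uses a small set of alternative promoters, which gives it a surface identity by which its own branches avoid each other.

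Cadherin and protocadherin genes outside the clusters often had an assigned Sp9 peak, and the peaks were mostly far from the gene's start. A peak at any distance was assigned to 24 of these 35 genes at E16.5 (68.6%, 95% Wilson interval 52.0 to 81.4) and to 26 at E13.5 (74.3%, 57.9 to 85.8). Over all protein-coding genes the shares were 23.6% at E16.5 and 20.7% at E13.5. Within 50 kb of the TSS there was a peak at 8 of the 35 genes at E16.5 (22.9%, 12.1 to 39.0) and at 11 at E13.5 (31.4%, 18.6 to 48.0), beside 15.1% and 10.8% of all protein-coding genes at E16.5 and E13.5. The E16.5 interval contains its background and the E13.5 interval lies above it. The same 8 genes had such a peak at both stages, namely Cdh2, Cdh6, Cdh15, Cdh22, Pcdh1, Pcdh8, Pcdh9 and Pcdh10, whereas 7.78% of all protein-coding genes had one at both. No gene outside the clusters had one at E16.5 only, and 3 of 35 (8.57%), Cdh5, Cdh11 and Pcdh19, had one at E13.5 only. Over all protein-coding genes those shares were 7.27% at E16.5 only and 3.02% at E13.5 only. Intervals cover counting error over genes, and neighbouring genes that share a peak are not independent.

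At the promoter the order was the other way round. Within 1 kb of the start, Cdh2 was the only 1 of the 35 genes with a peak at E16.5, and no gene had one at E13.5, while 9.42% of all protein-coding genes had one at E16.5 and 4.93% at E13.5. The proximal domain, with 5 kb before the TSS and 1 kb after it, is searched in full for every gene the authors used, and there the counts were again 1 (Cdh2) and 0. Its background was 10.2% at E16.5 and 5.51% at E13.5. The Wilson interval around 1 of 35 reaches from 0.506 to 14.5% and that around 0 of 35 up to 9.89%, so both intervals contain the background of their stage.

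**Figure D1:**
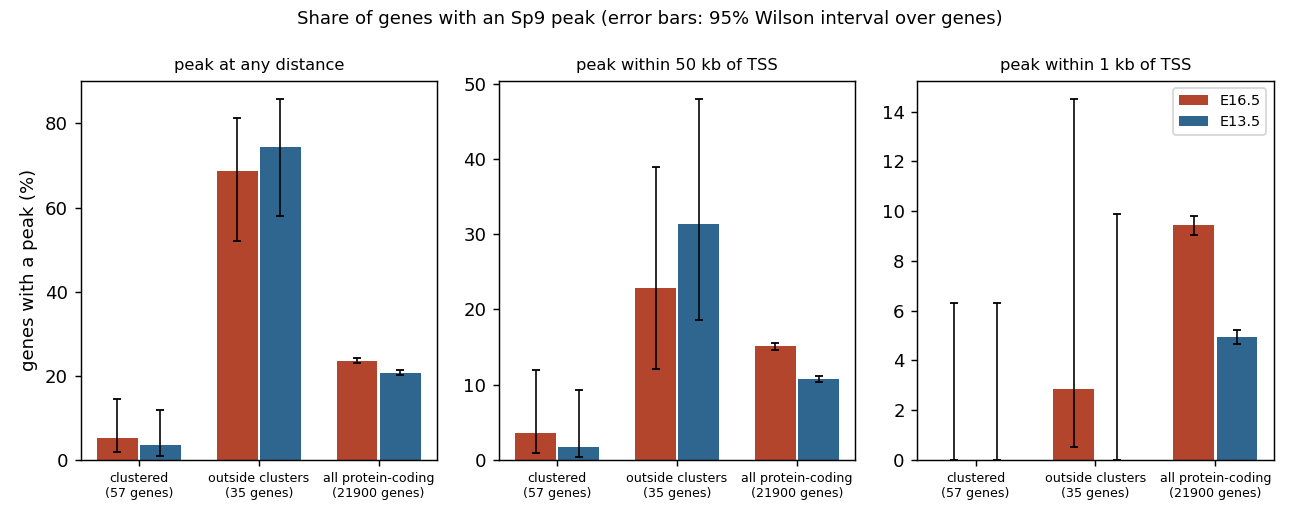
Share of genes (vertical axis, percent) with an Sp9 peak at any distance, within 50 kb and within 1 kb of the TSS, for clustered protocadherins, the other cadherin and protocadherin genes, and all protein-coding genes, with E16.5 in red and E13.5 in blue and error bars for the 95% Wilson interval over genes. The 35 genes outside the clusters stand at 68.6% and 74.3% in the left panel and at 2.86% and 0% in the right one.

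The clustered genes were nearly absent from the lists. At E16.5 3 of 57 had an assigned peak (5.26%, 1.81 to 14.4), Pcdha1, Pcdhb1 and Pcdhga11, and at E13.5 2 of 57 (3.51%, 0.968 to 11.9), Pcdha1 and Pcdhb1, beside 23.6% and 20.7% of all protein-coding genes. Within 50 kb the counts were 2 of 57 at E16.5 (3.51%, 0.968 to 11.9) and 1 of 57 at E13.5 (1.75%, 0.31 to 9.29), beside 15.1% and 10.8%. Within 1 kb they were 0 of 57 at both stages, with intervals up to 6.31%, beside 9.42% and 4.93%. Clustered and other genes together thus gave 10 of 92 genes within 50 kb at E16.5 (10.9%, 6.01 to 18.9) and 12 of 92 at E13.5 (13%, 7.62 to 21.4), with both backgrounds inside the intervals. These 5 assignments at E16.5 and 2 at E13.5 came from 3 and 1 distinct peaks. Set against the 24 and 26 of 35 genes outside the clusters, 54 of the 57 clustered genes were in neither list. A gene outside the gene set the authors used could receive no peak, and how many of the 57 are entries there is known only in part. A peak goes to the genes that flank it, so if the listed names stand in the GRCm38.p6 order, the 17 clustered genes between names that share a peak (13 alpha and 4 gamma genes, below) were not entries. For the alpha genes this also needs the Pcdha1 entry to stand before them, which is not stated (below). Over the other 40 genes the shares at any distance were 7.5% at E16.5 (2.58 to 19.9) and 5% at E13.5 (1.38 to 16.5), beside 23.6% and 20.7% of all protein-coding genes. Within 50 kb they were 5% at E16.5 (1.38 to 16.5) and 2.5% at E13.5 (0.443 to 12.9), and these intervals contain the shares of all genes. The part of the gene set and of the close spacing of clustered genes in their low counts was not tested.

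The recurring peak of the clusters lay between the TSS of the entry named Pcdha1 and that of Pcdhb1. It was 34653 bp downstream of the Pcdha1 entry and 86376 bp upstream of Pcdhb1 at E16.5, and 34592 and 86437 bp at E13.5. A further E16.5 peak lay 73736 bp downstream of Pcdha1 and 47293 bp upstream of Pcdhb1. The distances of each shared peak add up to 121029 bp at both stages, which is the separation of these TSSs in the authors' gene set. On the GRCm38.p6 gene order 13 more alpha genes, Pcdha2 to Pcdhac2, stand between Pcdha1 and Pcdhb1 on chromosome 18. Which alpha start the entry named Pcdha1 stands for is not stated in the list, so its distances cannot be tied to 1 alpha exon. The known enhancers of the alpha cluster lie within and downstream of its shared constant exons. Whether either peak falls on one of them was not tested, for want of coordinates.

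At the gamma end, Pcdhga11 had 1 peak, at E16.5 only, 60696 bp downstream of its TSS. The same peak was 55139 bp downstream of Diap1 (now Diaph1), a formin gene on the far side of the cluster, which has its own E16.5 peak 144 bp upstream of its TSS. In the GRCm38.p6 order the 4 gamma genes Pcdhga12, Pcdhgc3, Pcdhgc4 and Pcdhgc5 lie between Pcdhga11 and Diaph1. No beta gene other than Pcdhb1 was in either list.

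Among the type I classical cadherins, Cdh2, which encodes N-cadherin, the main cadherin of the junctions between neural progenitors, had the most peaks of any gene of the family. Its 7 peaks at E16.5 lay upstream at 816093 and 574354 bp and downstream at 674, 116682, 330993, 419020 and 780594 bp. Its 7 peaks at E13.5 lay 574368, 433029 and 47550 bp upstream and 46434, 116715, 418946 and 780238 bp downstream. The upstream position at 574354 bp and the downstream ones at 116682 and 419020 bp were shared, and the farthest downstream pair differed by 356 bp, beyond the 200 bp within which peaks were called recurring. That farthest pair was nearer to Gm10036, at 195865 bp at E16.5 and 196221 bp at E13.5. The E16.5 peak at 674 bp had no counterpart at E13.5 and was the only one in either list within 1 kb of any cadherin or protocadherin gene. The flanking peaks 47550 bp upstream and 46434 bp downstream were in the E13.5 list only.

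Cdh4, the gene of R-cadherin, had no peak within 100 kb. Its E16.5 peaks lay 817514 bp upstream and 136672 and 408220 bp downstream, and its E13.5 peaks 759258 and 189975 bp upstream and 408222 bp downstream. The recurring one lay nearer to the predicted gene Gm10711, 43258 bp upstream of its TSS at E16.5 and 43256 bp at E13.5. The peaks 817514 bp upstream at E16.5 and 759258 bp upstream at E13.5 lay nearer to Cdh26, at 194310 and 252566 bp. Cdh15, known for M-cadherin of muscle, had a single peak at each stage, 43671 bp upstream at E16.5 and 43710 bp at E13.5. It too lay nearer to another gene, Acsf3, at 28790 and 28751 bp. Cdh1 and Cdh3, the epithelial and placental cadherins E- and P-cadherin, had no peak at either stage.

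Of the 13 type II classical cadherins 8 had a peak at E16.5 and 10 at E13.5, beside 23.6% and 20.7% of all protein-coding genes. Of their 14 distinct peaks at E16.5, 10 recurred (71.4%, 45.4 to 88.3), and of the 23 at E13.5, 10 did (43.5%, 25.6 to 63.2). The shares over all peaks, 56.2% and 57.9%, lie inside these intervals. Cdh6, the cadherin of the lateral ganglionic eminence, was unchanged between the lists. Its peaks were 281576 bp upstream and 42862 bp downstream of the TSS at E16.5, and 281587 and 42788 bp at E13.5. Cdh22 had a peak 40536 bp upstream at E16.5 and 40539 bp upstream at E13.5, which was nearer to Slc35c2. It had 1 further peak at E13.5, 138405 bp downstream, which was much nearer to 1700025C18Rik (5698 bp).

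Cdh8 and Cdh11, adhesion genes expressed in subdivisions of the embryonic brain, had only downstream peaks. Cdh8 peaks stood at 211120, 733768 and 843377 bp at E16.5 and at 211124, 502747, 733670 and 798367 bp at E13.5, so 2 positions were shared. Cdh11 had 1 peak at 128360 bp at E16.5, which recurred at 128427 bp at E13.5, where a nearer one at 31129 bp was added. Cdh5 encodes VE-cadherin of endothelial junctions. Its peaks lay 653345 and 227076 bp upstream at E16.5, the first nearer to Gm8730 (582403 bp). At E13.5 the Cdh5 peaks lay 227068, 94171 and 39513 bp upstream. These genes showed the same form, a distal position in both lists with nearer peaks at E13.5 only for Cdh11 and Cdh5.

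The genes Cdh6, Cdh9, Cdh10, Cdh12 and Cdh18 form a neighbourhood on chromosome 15, with 1 other protein-coding gene, Acot10, among them in the GRCm38.p6 order. Peak numbers follow the chromosome in these lists, since they run in step with distance for 934 of 937 listed names with 3 or more peaks at E16.5 and 1081 of 1084 at E13.5. From the first to the last peak of the 5 cadherins there were 7 numbers at E16.5 and 12 at E13.5, and 6 and 10 of these were assigned to a cadherin. Of the others, 1 at each stage had no assigned gene and 1 at E13.5 was assigned to Acot10. In this gene order, the assignment rule leaves only these cadherins and Acot10 to receive a peak in the range. These counts were thus largely fixed in advance, and no share for other runs of genes was taken. Cdh18, a cadherin of the central nervous system, had 3 peaks at E16.5, 946368 and 884178 bp upstream and 367922 bp downstream. At E13.5 it had 5, at 884189, 693786, 553527 and 382971 bp upstream and 98866 bp downstream. Only the peak at 884178 bp was in both lists. The TSSs of Cdh12 and Cdh18 stood 1925011 bp apart by the distances of the peak they share. Cdh9 and Cdh10 had 1 peak each, at E13.5 only, and Cdh12 had 2 at E16.5 and 1 at E13.5. Cdh20 had 1 at E16.5 and 2 at E13.5. No peak was assigned to Cdh7, Cdh19 or Cdh24.

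**Figure D2:**
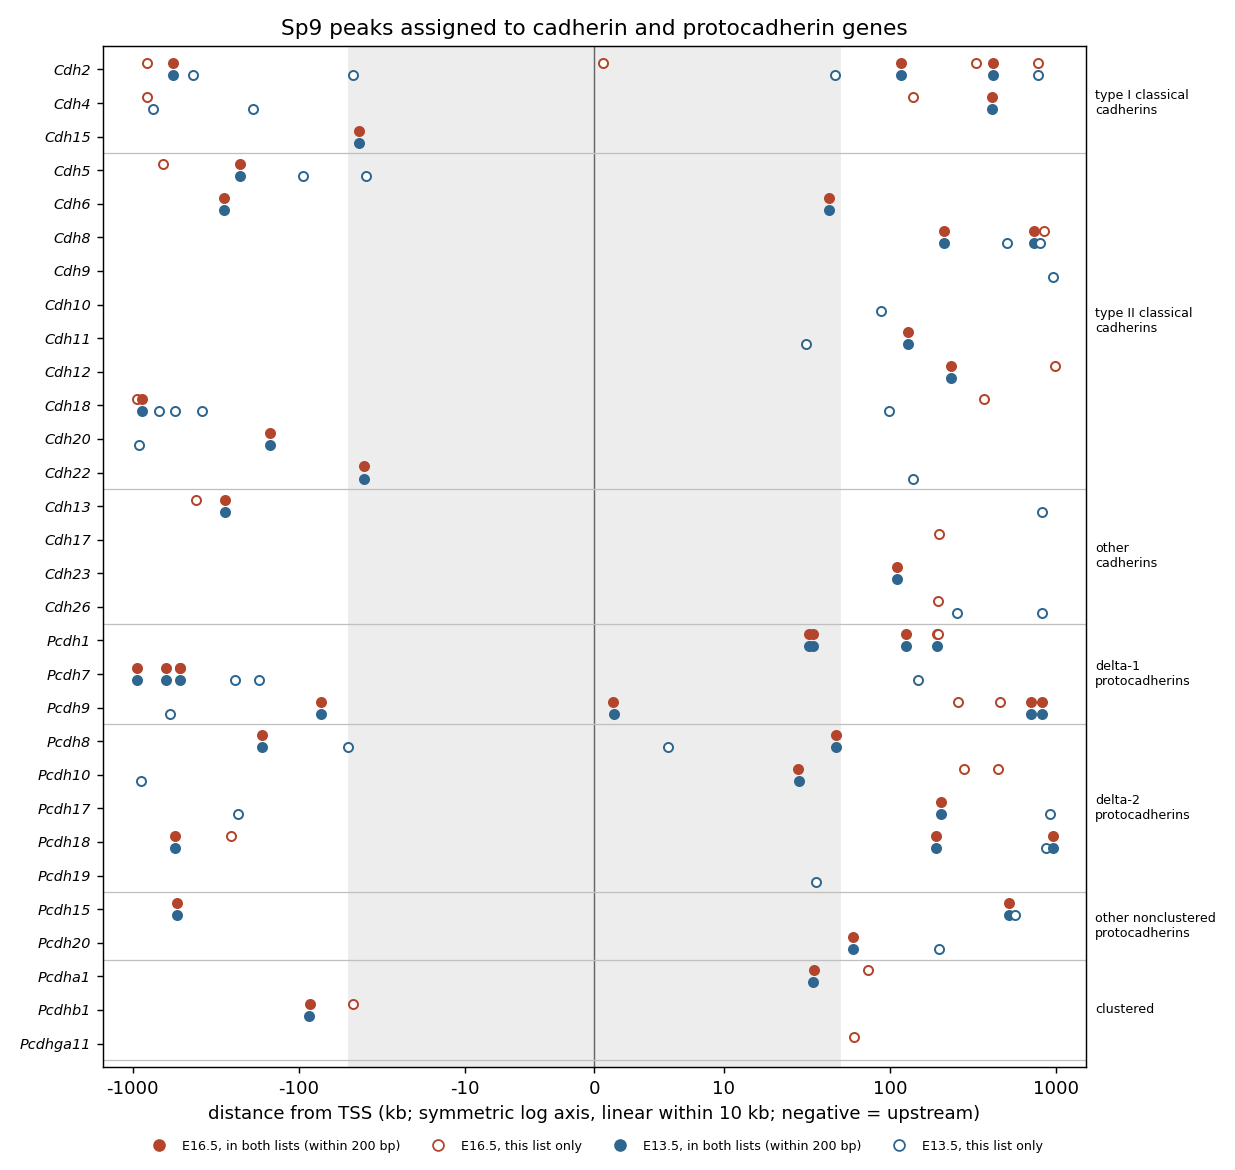
Position of every assigned peak relative to the TSS (horizontal axis, kb, symmetric log scale) for the 30 cadherin and protocadherin genes with a peak, E16.5 in red above E13.5 in blue, with filled points for positions present in both lists within 200 bp. The grey band spans 50 kb to either side, and the points closest to the TSS are those of Cdh2 at 674 bp, Pcdh9 at 1460 and 1497 bp and Pcdh8 at 5715 bp.

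None of the 5 remaining cadherins had a peak within 50 kb, where the intervals around 0 of 5 reach to 43.4% and contain the shares of all genes. Cdh13, whose product T-cadherin is held in the membrane by a lipid anchor, had a peak 279223 bp upstream at E16.5 that recurred at 279216 bp, with 1 further peak at each stage. Each Cdh13 peak was nearer to another gene, the recurring one to Mphosph6, at 202581 bp at E16.5. Cdh23, which with Pcdh15 builds the tip links of sensory hair cells, had 1 peak, 110678 bp downstream at E16.5 and 110589 bp at E13.5. Cdh26 had 1 peak at E16.5 and 2 at E13.5, all shared with Cdh4, and none recurred. Cdh17, a cadherin of gut epithelium, had 1 peak at E16.5 only, much nearer to Pdp1 (11352 bp) than to itself (196928 bp). Cdh16 had none.

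The delta-1 protocadherins with a peak had several each. Pcdh1, Pcdh7 and Pcdh9 together had 15 peaks at E16.5 and 15 at E13.5, of which 11 recurred (73.3%, Wilson interval 48.0 to 89.1), and the fourth gene, Pcdh11x, had none. That interval contains the 56.2% and 57.9% of all peaks that recurred. All 4 Pcdh1 peaks at E13.5 were found again. At E16.5 they lay 32391, 34458, 124537 and 192360 bp downstream, with 1 more at 195398 bp, and at E13.5 they lay 32365, 34485, 124532 and 192285 bp downstream. Of these, 3 of 5 at E16.5 and 2 of 4 at E13.5 were nearer to Arap3, a gene for a GTPase-activating protein, at 87651, 19828 and 16790 bp upstream of it at E16.5 and 87656 and 19903 bp at E13.5. The peaks at 32391 and 34458 bp at E16.5 and their E13.5 counterparts were nearer to Pcdh1.

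Pcdh9 had the peak nearest to a TSS outside Cdh2. It stood 1460 bp downstream at E16.5 and 1497 bp downstream at E13.5. The other E16.5 peaks of Pcdh9 were 73719 bp upstream and 257060, 456944, 707567 and 820548 bp downstream. At E13.5 they were 596745 and 73720 bp upstream and 707565 and 820554 bp downstream, so 4 positions recurred in all. Pcdh7 had peaks 943771, 634443, 520968 and 518531 bp upstream at E16.5. At E13.5 its peaks were 943705, 634487, 518514, 243972 and 173012 bp upstream and 147304 bp downstream. The 3 shared Pcdh7 positions were the far upstream ones, and the 3 peaks within 250 kb were in the E13.5 list only.

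Of the 5 delta-2 protocadherins, 4 had a peak at E16.5 and 5 at E13.5, beside 23.6% and 20.7% of all protein-coding genes. Pcdh8, the mouse paraxial protocadherin, had peaks 165974 bp upstream and 47191 bp downstream at E16.5. At E13.5 these recurred at 165969 and 47221 bp, and peaks 50760 bp upstream and 5715 bp downstream were added. The recurring upstream peak was nearer to Olfm4, at 63016 bp at E16.5 and 63021 bp at E13.5. Pcdh10, which is required for the growth of striatal axons, had peaks 28089, 278709 and 443903 bp downstream at E16.5, and 896879 bp upstream and 28207 bp downstream at E13.5. The position near 28 kb was shared, with a difference of 118 bp. Pcdh18 had peaks 553939 and 257198 bp upstream and 190003 and 952712 bp downstream at E16.5. At E13.5 they stood 553915 bp upstream and 190123, 866855 and 952630 bp downstream, so 3 positions were shared. The shared upstream position was nearer to Slc7a11, 132358 bp from it at E16.5. The shared position at 952712 bp and the E13.5 peak at 866855 bp were nearer to 1700018B24Rik, at 195503 and 281360 bp.

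Pcdh17, which takes part in synapse assembly in corticobasal ganglia circuits, had 1 peak at E16.5, 202636 bp downstream, and 3 at E13.5, with the shared one at 202584 bp. Pcdh19, the gene mutated in a human epilepsy that mainly affects females, had a single peak at E13.5, 35650 bp downstream, and none at E16.5. Of the other nonclustered protocadherins, Pcdh15 had peaks 541324 bp upstream and 517955 bp downstream at E16.5, which recurred at 541375 and 517977 bp. A further peak, 565891 bp downstream, was in the E13.5 list only. Pcdh20 had 1 peak at E16.5, 60093 bp downstream, that recurred at 60176 bp, with 1 further peak at E13.5, and Pcdh12 had none.

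**Figure D3:**
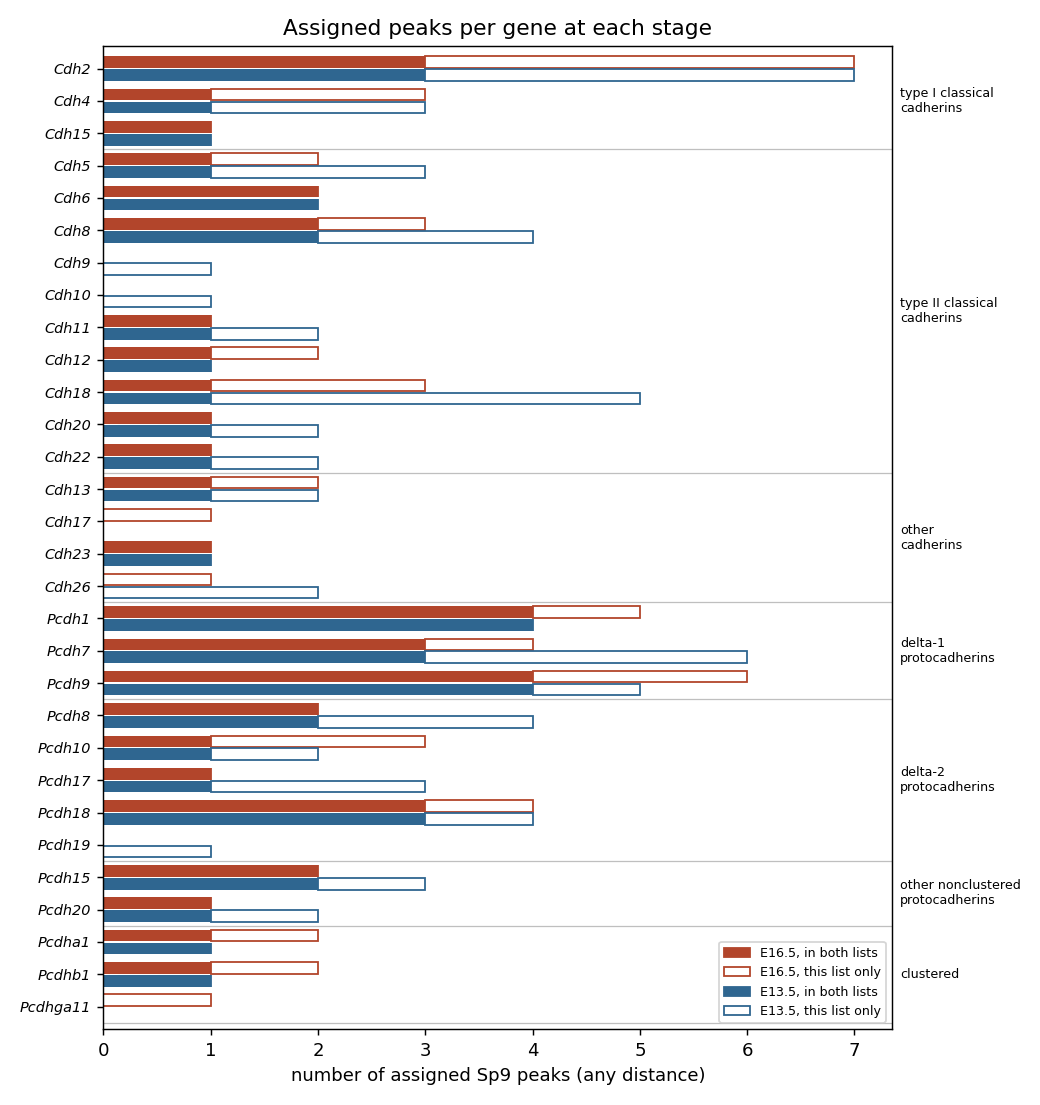
Number of assigned peaks (horizontal axis) for each of the 30 genes with a peak, grouped by subfamily, with E16.5 in red above E13.5 in blue and filled bars for positions in both lists. Cdh2 has 7 at each stage, and Pcdh9, Pcdh7 and Pcdh1 follow with 6, 4 and 5 at E16.5 and 5, 6 and 4 at E13.5.

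Promoter sequences were available from RefSeq (GRCm38.p6) for 22 of the 35 genes outside the clusters and for none of the 57 clustered genes, as 25 windows of the 250 bases before the start. Cdh2, the only gene of the family with a peak within 1 kb, was not among the 22. The GC box, GGGCGG on either strand, is the classical binding motif of the SP family. It occurred in 9 of the 25 windows (36.0%), against 42.6% of the 21263 windows of all protein-coding genes. CACCC on either strand, which is also bound by SP and KLF factors and can overlap a GC box, was in 12 of 25 (48.0%) against 54.2%. The homeodomain motif TAATTA, the same on both strands, was in 1 of 25 (4%) against 4.31%. A match is a description of the letters and not a binding site, and no peak of the family was listed within 250 bp upstream of a TSS. The authors' mm9 start can differ from the RefSeq one.

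Of the 22 genes, 4 are shown because they represent both situations among genes with a peak within 50 kb: Pcdh9 and Pcdh8 have the nearest peaks after Cdh2 and no GC box in this window, and Cdh22 and Cdh15 have a recurring peak about 40 kb upstream and 1 and 3 GC boxes. The recurring peaks of Cdh22 and Cdh15 were nearer to other genes, Slc35c2 and Acsf3. Cdh6 and Pcdh10, with 2 and 1 GC boxes and a recurring peak within 50 kb nearest to themselves, are not shown. Capitals mark GGGCGG or its reverse complement, and each window reads 5′ to 3′ on the gene's strand. RefSeq lists 2 starts for Pcdh9 with overlapping windows, of which 1 is shown.

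Pcdh9 (chr14:93890670-93890919, minus strand): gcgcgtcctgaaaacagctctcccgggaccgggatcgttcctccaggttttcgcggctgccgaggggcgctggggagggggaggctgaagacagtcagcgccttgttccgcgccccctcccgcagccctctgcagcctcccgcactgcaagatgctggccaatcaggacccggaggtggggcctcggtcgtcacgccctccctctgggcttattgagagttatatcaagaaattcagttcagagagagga

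Pcdh8 (chr14:79771313-79771562, minus strand): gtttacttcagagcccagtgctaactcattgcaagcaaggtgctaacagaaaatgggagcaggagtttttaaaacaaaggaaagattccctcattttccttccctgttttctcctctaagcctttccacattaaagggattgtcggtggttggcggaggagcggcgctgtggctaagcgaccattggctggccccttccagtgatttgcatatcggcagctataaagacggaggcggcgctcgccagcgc

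Cdh22 (chr2:165234738-165234987, minus strand): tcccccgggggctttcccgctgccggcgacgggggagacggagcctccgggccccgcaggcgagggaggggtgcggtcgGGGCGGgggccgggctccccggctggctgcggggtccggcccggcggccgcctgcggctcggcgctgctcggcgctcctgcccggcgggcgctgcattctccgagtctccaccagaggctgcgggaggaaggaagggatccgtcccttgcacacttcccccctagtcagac

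Cdh15 (chr8:122848124-122848373, plus strand): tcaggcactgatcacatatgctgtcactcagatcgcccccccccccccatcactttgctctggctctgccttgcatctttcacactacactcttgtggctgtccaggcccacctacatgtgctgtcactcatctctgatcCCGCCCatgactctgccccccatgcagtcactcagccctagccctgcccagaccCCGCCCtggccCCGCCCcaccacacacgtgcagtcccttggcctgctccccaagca

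The 64 gene and peak pairs of the family at E16.5 and the 75 at E13.5 lay farther from the TSS than those of other genes. Their median distance was 245 kb at E16.5 and 227 kb at E13.5, beside 77.2 and 129 kb over all protein-coding genes. Pairs beyond 500 kb made up 31.2% at E16.5 and 36.0% at E13.5 in the family, and 10.6% and 14.4% over all genes. Pairs within 1 kb made up 1.56% and 0% in the family and 23.0% and 11.8% over all genes. In the 5 to 50 kb range the shares were alike, 14.1% and 18.7% in the family and 15.6% and 15.8% over all genes. Downstream pairs outnumbered upstream ones in the family, 40 to 24 at E16.5 and 43 to 32 at E13.5, and also over all genes, 4646 to 4436 and 4933 to 4269. The 40 recurring pairs of the family count at both stages, and no interval was taken here.

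**Figure D4:**
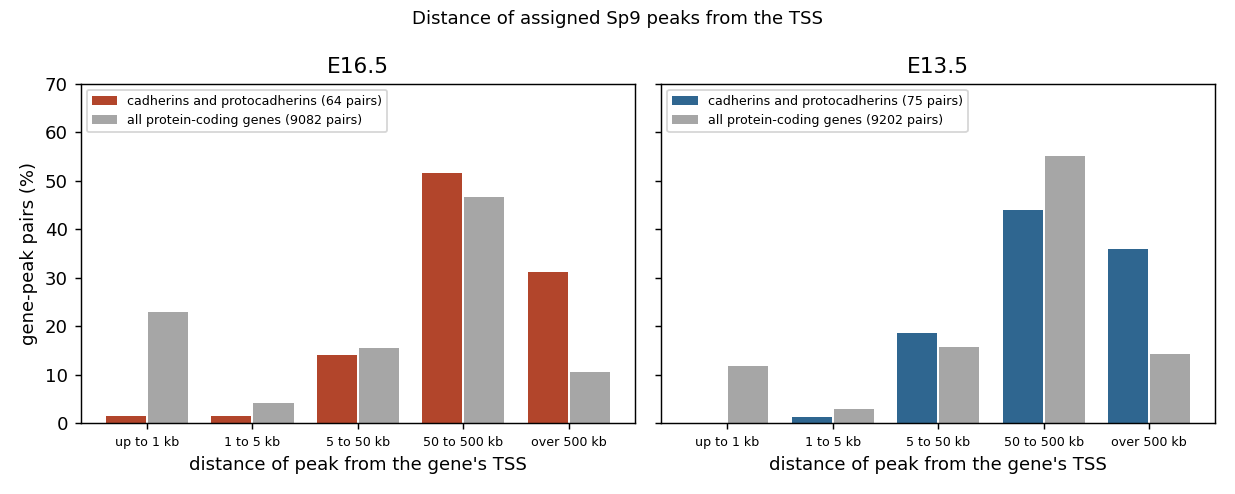
Share of gene and peak pairs (vertical axis, percent) by distance of the peak from the gene's TSS, for cadherin and protocadherin genes (coloured) and all protein-coding genes (grey), at E16.5 (left) and E13.5 (right). The coloured bars are lower than the grey ones up to 1 kb (1.56% against 23.0% at E16.5) and higher beyond 500 kb (31.2% against 10.6%).

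Several peaks per gene were frequent as well. Outside the clusters, 9 of 35 genes (25.7%) had 3 or more assigned peaks at E16.5 and 12 of 35 (34.3%) at E13.5, beside 3.9% and 4.49% of all protein-coding genes. The spacing of genes moved with these counts. For listed gene pairs that share a peak, the 2 distances added up to a median of 401 kb at E16.5 and 349.6 kb at E13.5 where 1 of the pair was a cadherin or protocadherin, and to 196 and 235 kb over all pairs. Peaks assigned to 1 gene alone made up 41.7% of the family's peaks at E16.5 and 55.6% at E13.5, beside 38.5% and 30.3% of all peaks. The part of gene spacing in the number of assigned peaks was not tested. For 45 of the 60 distinct peaks at E16.5 and 58 of the 72 at E13.5, the nearest listed TSS was that of a cadherin or protocadherin. This includes 25 peaks at E16.5 and 40 at E13.5 that were assigned to 1 gene alone, where no other listed TSS could be nearer. It also includes peaks shared by 2 family genes, such as Pcdha1 and Pcdhb1 or Cdh26 and Cdh4. For those the nearest listed TSS is of the family in any case. No such share was taken over all peaks, so these counts have no background.

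Recurrence in the family was close to that of all peaks. At E16.5 39 of 60 distinct peaks had a counterpart within 200 bp in the other list (65.0%, 52.4 to 75.8), and at E13.5 39 of 72 did (54.2%, 42.7 to 65.2). The shares over all peaks were 56.2% and 57.9%, inside both intervals. In the 40 recurring gene and peak pairs, the 2 distances differed by a median of 35 bp and by 1 to 120 bp. Within 50 kb 9 of 11 pairs recurred at E16.5 and 9 of 15 at E13.5, beside 43.6% and 60.2% of such pairs over all protein-coding genes. The E16.5 background holds 2087 pairs within 1 kb, of which 691 recurred, and the family has 1 such pair. From 5 to 50 kb 8 of 9 family pairs recurred at E16.5 and 8 of 14 at E13.5. Over all protein-coding genes 847 of 1415 and 850 of 1458 did. These family counts are small, and no interval was taken. Beyond 500 kb 12 of 20 pairs recurred at E16.5 and 12 of 27 at E13.5, beside 73.7% and 53.7%.

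Genes for the partners of cadherins inside the cell had peak shares not far from those of all genes. Of 11 catenin and related genes, 3 had an assigned peak at E16.5 (27.3%, 9.75 to 56.6) and 4 at E13.5 (36.4%, 15.2 to 64.6), beside 23.6% and 20.7% of all protein-coding genes. Within 50 kb there were 2 (18.2%) and 1 (9.09%), beside 15.1% and 10.8%. Ctnnb1, the gene of beta-catenin, which links cadherins to actin and also carries Wnt signals, had a peak at its promoter, 44 bp into the gene, at E16.5 only, besides one 48305 bp upstream that recurred at 48434 bp. Ctnna2, the neural alpha-catenin, had a peak 142 bp upstream at E16.5 only, and peaks 210957 and 565899 bp downstream at E16.5 that recurred at 210918 and 565838 bp at E13.5. The farther recurring one was nearer to Lrrtm1, at 170954 bp at E16.5 and 171015 bp at E13.5. A further Ctnna2 peak, 241878 bp downstream, was in the E16.5 list only. Ctnnd2, which encodes the neural delta-catenin, had 3 peaks at E16.5 and 2 at E13.5, all 323466 to 734788 bp away. Its E16.5 peak at 568665 bp and E13.5 peak at 549286 bp were nearer to Dap, at 483127 and 502506 bp. Pkp4, a p120 relative, had 1 at E13.5 only, 190640 bp downstream and nearer to Dapl1 (133163 bp). Within 1 kb the counts were thus 2 of 11 at E16.5 (interval 5.14 to 47.7%) and 0 of 11 at E13.5 (up to 25.9%), and these intervals contain the 9.42% and 4.93% of all genes.

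Of 27 other genes of the cadherin superfamily, 3 had a peak within 50 kb at E16.5 (11.1%, 3.85 to 28.1) and 2 at E13.5 (7.41%, 2.06 to 23.4), near the 15.1% and 10.8% of all genes, and none had one within 1 kb. Fat1, an atypical cadherin of planar polarity, had one 12062 bp upstream at E16.5 only. Fat4 had one 14028 bp upstream at E16.5 that recurred at 14016 bp. The peak of Cdhr2, 7327 bp upstream at E16.5 and 7406 bp at E13.5, was nearer to Rnf44, at 6040 and 5961 bp. Fat3, with no peak within 50 kb, had 4 downstream peaks at each stage, and all 4 recurred. The farthest, 422590 bp downstream at E16.5, was nearer to Mtnr1b (81091 bp). Of 11 genes known to regulate the clustered protocadherins, among them Ctcf, the cohesin subunits and Smchd1, 1 had a peak within 50 kb at each stage (9.09%), beside the same 15.1% and 10.8%. It was Wiz, a zinc finger gene, with a peak 334 bp upstream at E16.5 and 415 bp upstream at E13.5.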

How the data were processed

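Sp9 ChIP and input libraries were made from micro-dissected, sheared chromatin, per the labels' protocols. MACS2 2.1.0 and BWA 0.6.2 appear with the mm9 build in the submitters' processing notes, as do bcl2fastq 1.8.4 and CASAVA 1.8.2, with no role given. The deposited values are peak numbers with signed TSS distances in bp and have no standard unit, per the file headers. The authors assigned peaks by domains of 5000 bp upstream and 1000 bp downstream, extended up to 1000000 bp, with curated domains, per the file headers. Lettered entries of 1 number were counted once.

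Listed names were matched to RefSeq genes (GRCm38.p6, used for names, gene type and order) by symbol or a synonym of 1 gene: 5330 of 5463 names at E16.5 and 4698 of 4826 at E13.5. All 27 and 28 family names matched by symbol. Members of the family, subfamilies and other lists were chosen with earlier results of these data known, so no test was run. Positions are given for genes with a peak within 50 kb, the 10 with most peaks and clustered genes with a peak; those of further genes were added after their values were seen. The 4 promoters shown were also chosen after the values were seen. Shares carry 95% Wilson intervals. Python 3.11.15, scipy 1.17.1 and matplotlib 3.10.9 were used, and the matching was tested on simulated data.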

Additional observations from a re-analysis of the deposited data

How the results depend on the processing

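Counts of genes with a peak within 50 kb moved with the window. Within 10 kb they were 2 at E16.5 and 2 at E13.5 for all cadherin and protocadherin genes and also outside the clusters, and 0 at both stages for clustered genes. From 5 kb upstream to 1 kb downstream they were 1 and 0 for all and outside the clusters, and 0 and 0 for clustered genes. At any distance they were 27 and 28 for all, 24 and 26 outside the clusters, and 2 for clustered genes at E13.5, as also within 100 kb. Promoter counts at E16.5 were 0 within 500 bp and 2 within 2.5 kb, and at E13.5 1 within 2.5 kb. Leaving out the 17 clustered genes between names that share a peak, a choice made after seeing the data, kept the counts of 2 and 1 clustered genes within 50 kb. Of 52 alternatives 31 stayed within 1.5 times the reported count or within the interval of the reported share, among them official symbols only, the nearest listed TSS and every matching limit for recurrence, which gave 61.7 to 66.7% at E16.5 and 51.4 to 55.6% at E13.5. With the nearest listed TSS, the counts within 50 kb outside the clusters fell to 6 at E16.5 and 9 at E13.5, as Cdh15 and Cdh22 dropped out. No paired analysis was possible because each stage has 1 ChIP library. A peak below the authors' threshold is in neither list.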
